A study of Mus musculus with 6 samples.

Results

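The genes described here are those of the mouse receptors for glutamate and GABA, the main excitatory and inhibitory transmitters of the cortex. They were chosen by name from the protein-coding genes of the GENCODE M21 annotation, as the Gria, Grik, Grin, Grm, Gabra, Gabrb and Gabrg genes with a number, together with Gabrd, Gabre, Gabrq, Gabrp, Gabbr1 and Gabbr2. This gave 42 genes of the 53379 listed in each table, and all 42 were found by their Ensembl identifier and passed the filter of a mean of at least 1 FPKM (fragments per kilobase, relative to library size).

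The RNA came from small extracellular vesicles (sEV), the small membrane particles that cells shed into their surroundings, here of cultured embryonic cortical neurons of genotype WT. HypEV, with 3 libraries, are vesicles of neurons whose treatment is labelled OGD/R, and NorEV, also with 3 libraries, are those of the neurons labelled control. The series text speaks of hypoxic and normoxic neurons, and OGD/R, which the labels do not spell out, was taken as the hypoxic treatment because control is the only other label. Age of the embryos, strain, duration of the treatment and vesicle isolation are not given in the sources used here, nor whether each replicate was its own culture. Tests thus rest on the variation among 6 libraries, and that variation may be technical.

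Ionotropic receptors are ion channels opened by the transmitter itself. AMPA, kainate and NMDA receptors pass cations when glutamate binds, and GABA-A receptors, which are pentamers of mixed subunits, pass chloride. Metabotropic glutamate receptors and the GABA-B receptor act through G proteins, many of them at the presynaptic terminal. In the cell these messenger RNAs encode proteins of the neuronal membrane.

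Depth on genes, read from the steps between FPKM values, was 1320916 to 2141611 fragments per library in HypEV and 1092724 to 1494499 in NorEV. Libraries HypEV 1 and HypEV 3 stand apart, because 6 near-identical short entries called here the Gm23935 family took 49.6% and 24.5% of their fragments, against 1.97% in HypEV 2 and 0.303 to 4.34% in NorEV. Nearly all of this fell on the single entry Gm23935, with 49.5% in HypEV 1 and 24.4% in HypEV 3. FPKM divides by all fragments, so every other gene is scaled down in those libraries, and results are therefore also given with totals that leave this family out. All 12 pan-neuronal marker genes (Tubb3, Map2, Rbfox3, Snap25 and others) had reads in every library, with summed levels of 125 to 183 FPKM in HypEV and 126 to 187 FPKM in NorEV. The 14 genes of liver and muscle used as a contrast summed to 63.2 to 214 FPKM in HypEV and 129 to 256 FPKM in NorEV, and of them Apoa1, Fgb and Serpina1a were at 0 in at least 1 library. Of the 20356 protein-coding genes that passed the filter, 2408 were at 0 in at least 1 library. Reads in every library were thus usual and do not set the neuronal markers apart.

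Subunits of a family arose from common ancestors and share stretches of coding sequence, which bears on how well reads can be given to the right gene. None of the 42 genes had a copy over 90% alike over 80% of its length. The longest identical coding stretch between any pair of AMPA, kainate and metabotropic receptor genes is printed here, because such stretches are where a short read could belong to either gene. Capitals mark the identical bases and small letters the 9 bases on either side, all read in the sense of the messenger RNA from the longest GENCODE M21 transcript (GRCm38).
Gria4: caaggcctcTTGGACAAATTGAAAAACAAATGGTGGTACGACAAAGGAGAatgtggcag
Gria2: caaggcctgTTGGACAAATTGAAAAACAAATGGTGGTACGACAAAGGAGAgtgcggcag
Grik1: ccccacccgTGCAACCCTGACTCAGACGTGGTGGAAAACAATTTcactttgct
Grik2: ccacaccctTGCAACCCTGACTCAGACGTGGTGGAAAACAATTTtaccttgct
Grm6: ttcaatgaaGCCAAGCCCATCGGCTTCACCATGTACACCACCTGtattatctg
Grm4: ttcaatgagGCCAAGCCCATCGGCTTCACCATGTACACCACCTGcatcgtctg
The stretch was 41 bases for Gria4 and Gria2, 35 for Grik1 and Grik2 and 35 for Grm6 and Grm4. Each is short beside its transcript, and the sources used here do not give the read length. The longest transcripts of Gria3, Grm8 and Gabrd have no annotated coding part and did not enter this comparison. Another gene of the same strand overlapped the exons of 5 of the 42 genes, over at most 0.990% of their length, and a gene of the opposite strand those of 12, the most in Grin3b with 32.1%.

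Receptor subunit RNA was present at low levels and in nearly every library. Of the 252 values of a gene in a library, 1 was at 0, and the median was 47 reads and the highest 220. Values at 0 were also few among the 20356 tested protein-coding genes, with 152 (NorEV 3) to 1306 (HypEV 1) genes at 0 per library. Presence in nearly every library is therefore not particular to the subunits. Mean FPKM over the 6 libraries ran between 1.80 for Grin3b and 24.9 for Grm8, with 13 genes below 5 FPKM, 22 from 5 to 10 and 7 above 10. The median gene stood at 6.08 FPKM, against 7.27 FPKM over 20356 tested protein-coding genes, and its percentile among them was 40.5. Grm8 and Gabbr1 lay above the 90th percentile, and Gabre, Gabrg3 and Grin3b below the 10th.

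**Figure D1:**
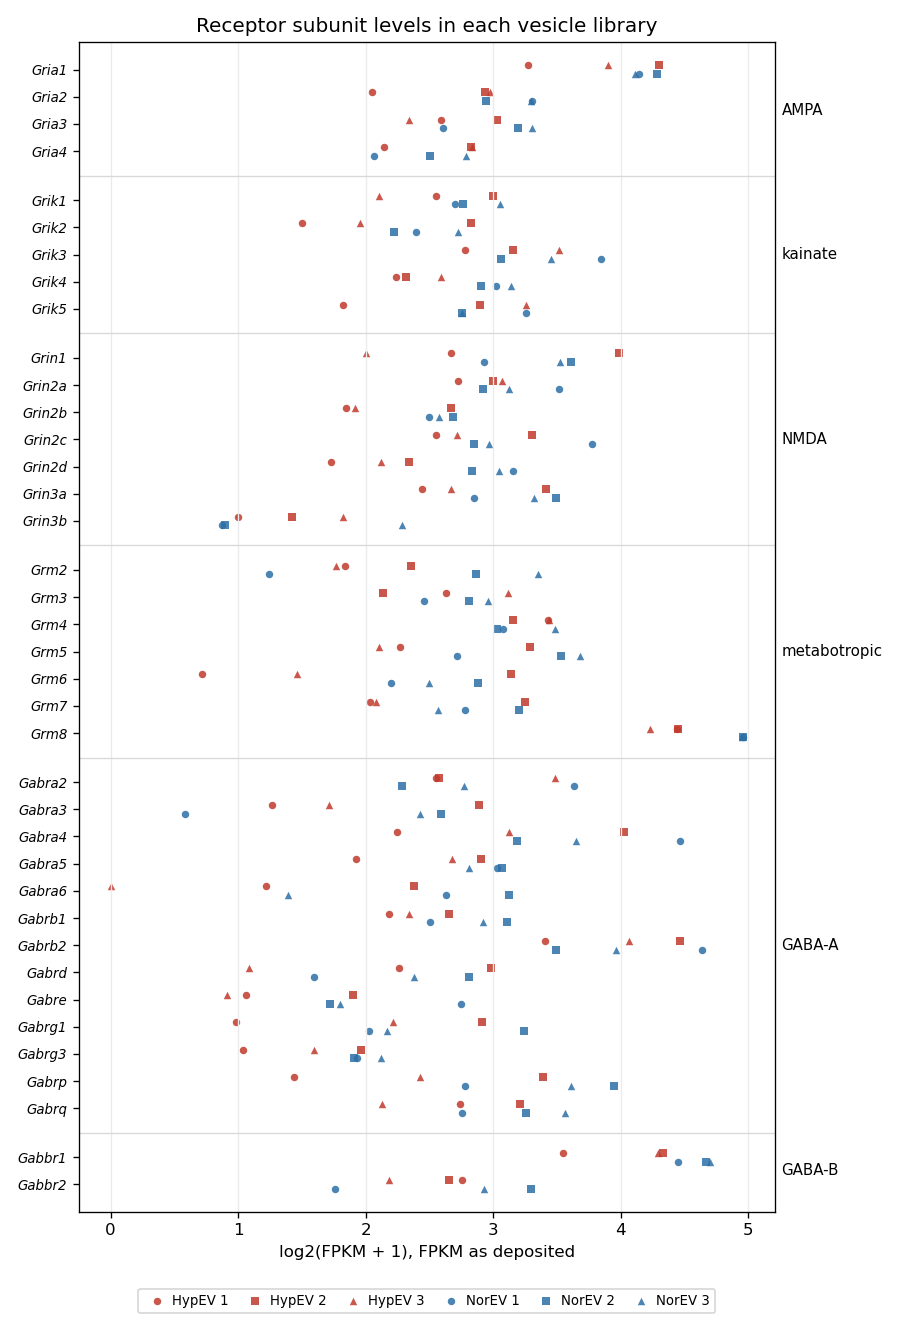
Level of 38 receptor subunit genes as log2(FPKM + 1), with 1 point per library (red HypEV, blue NorEV; circle, square and triangle for replicates 1, 2 and 3), grouped by receptor class. Most genes lie between 1 and 4 on this scale, the groups overlap in nearly all rows, and HypEV 1 is the lowest library for 24 of all 42 genes.

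Among AMPA receptor subunits, which carry most fast excitatory transmission, Gria1 was highest, with 8.67, 18.7 and 13.9 FPKM in HypEV 1, 2 and 3 and 16.7, 18.5 and 16.3 FPKM in NorEV 1, 2 and 3. Gria2 (ENSMUSG00000033981, chromosome 3, 80681450 to 80802835, minus strand), whose edited form makes the channel poorly permeable to calcium, had 3.15, 6.67 and 6.86 FPKM in HypEV and 8.91, 6.69 and 8.84 FPKM in NorEV. Its HypEV values lay mostly below those of NorEV, but HypEV 3 and NorEV 2 overlap. Means were 5.56 ± 2.09 FPKM in HypEV and 8.15 ± 1.26 FPKM in NorEV (SD, n = 3 each), a log2 fold change of -0.53 ± 0.49 (SE) with a limma adjusted p of 0.799. Without the Gm23935 family in the totals the log2 fold change was -0.15. Gria3 was at 4.07 to 7.17 FPKM in HypEV and 5.10 to 8.87 FPKM in NorEV. Gria4 was the AMPA subunit without a lower mean in HypEV, at 3.43, 6.10 and 6.12 FPKM there and 3.20, 4.68 and 5.90 FPKM in NorEV. With totals that leave out the Gm23935 family its values were 6.81, 6.23 and 8.10 FPKM in HypEV and 3.34, 4.71 and 5.92 FPKM in NorEV, which do not overlap, with a log2 fold change of 0.53 ± 0.42 (SE) and a limma adjusted p of 0.895.

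The kainate receptor subunits Grik1, Grik2 and Grik3 can form channels alone, while Grik4 and Grik5 need one of them as a partner. Grik4 (ENSMUSG00000032017, chromosome 9, 42518135 to 42944493, minus strand) had 3.73, 3.99 and 5.02 FPKM in HypEV and 7.15, 6.49 and 7.84 FPKM in NorEV. All 3 HypEV libraries were below all 3 NorEV libraries, with means of 4.25 ± 0.679 FPKM in HypEV and 7.16 ± 0.676 FPKM in NorEV (SD, n = 3 each). The log2 fold change was -0.64 ± 0.46 (SE), with a 95% interval of -1.70 to 0.41 and a limma adjusted p of 0.782, and it was -0.27 with totals that leave out the Gm23935 family. Grik5 was at 2.53, 6.47 and 8.58 FPKM in HypEV and 8.56, 5.75 and 5.77 FPKM in NorEV. Grik2, a main kainate subunit of cortical neurons, was at 1.83, 6.09 and 2.89 FPKM in HypEV and 4.27, 3.68 and 5.61 FPKM in NorEV. In both genes the groups overlap, and HypEV 1 is the lowest library. Grik1 was at 3.31 to 7.0 FPKM in HypEV and 5.51 to 7.32 FPKM in NorEV, and Grik3 at 5.88 to 10.5 FPKM in HypEV and 7.33 to 13.4 FPKM in NorEV.

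Every NMDA receptor contains Grin1, the glycine-binding subunit, together with Grin2 or Grin3 subunits, whose mix changes through development. Grin1 had 5.35, 14.9 and 3.01 FPKM in HypEV and 6.63, 11.3 and 10.5 FPKM in NorEV, so that the HypEV libraries included both the highest and the lowest value. Grin2b, the Grin2 subunit typical of the embryonic forebrain, had 2.60, 5.38 and 2.77 FPKM in HypEV and 4.64, 5.44 and 4.95 FPKM in NorEV. Grin2a, which in forebrain rises after birth, had 5.62, 7.0 and 7.40 FPKM in HypEV and 10.4, 6.58 and 7.73 FPKM in NorEV. FPKM of Grin2a was thus above that of Grin2b in 6 of 6 libraries. In plain reads it was above in 3 of 6, since the annotated Grin2b transcript is 24060 bases long and that of Grin2a 14634, and the order of the pair therefore rests on the transcript length that the FPKM used.

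Grin2d (ENSMUSG00000002771, chromosome 7, 45831883 to 45878378, minus strand), a subunit of early development and of interneurons, was the NMDA subunit with the smallest p. It had 2.32, 4.08 and 3.35 FPKM in HypEV and 7.92, 6.12 and 7.27 FPKM in NorEV. No HypEV library reached the lowest NorEV library, and this also held with totals that leave out the Gm23935 family, where the values were 4.60, 4.16 and 4.43 FPKM in HypEV and 8.28, 6.16 and 7.29 FPKM in NorEV. The reads behind them were 27, 32 and 24 in HypEV and 47, 47 and 59 in NorEV. The log2 fold change was -0.95 ± 0.49 (SE), with a 95% interval of -2.07 to 0.18 and a limma adjusted p of 0.730, and without the family -0.60 ± 0.40 with a limma adjusted p of 0.893. Grin2d exons overlap a gene on the opposite strand over 9.66% of their length. Grin3b, a glycine-binding subunit known mainly from motor neurons, was the lowest of the 42 genes, with 0.996, 1.69 and 2.54 FPKM in HypEV and 0.836, 0.862 and 3.87 FPKM in NorEV, which is 3 to 19 reads per library. Grin3a, its relative in forebrain, was at 4.43 to 9.70 FPKM in HypEV and 6.23 to 10.3 FPKM in NorEV.

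Metabotropic glutamate receptors fall into group I, which raises intracellular calcium, and groups II (Grm2 and Grm3) and III (Grm4, Grm6, Grm7 and Grm8), which lower cyclic AMP. Grm5, a group I receptor common in young cortex, had 3.83, 8.77 and 3.29 FPKM in HypEV and 5.57, 10.6 and 11.8 FPKM in NorEV, with a log2 fold change of -0.75 ± 0.54 (SE), or -0.38 with totals that leave out the family, and overlapping groups.

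Grm8 (ENSMUSG00000024211, chromosome 6, 27275119 to 28135178, minus strand), a presynaptic group III receptor, was the most abundant subunit gene and the highest of the 42 in 4 of 6 libraries. It had 20.7, 20.9 and 17.8 FPKM in HypEV and 30.1, 30.1 and 30.0 FPKM in NorEV. The HypEV values were all below the NorEV values, which were nearly equal to each other, with means of 19.8 ± 1.73 FPKM in HypEV and 30.1 ± 0.0774 FPKM in NorEV (SD, n = 3 each). The NorEV values rest on 158, 204 and 215 reads. Their Poisson 95% intervals were 25.6 to 35.2, 26.1 to 34.5 and 26.1 to 34.3 FPKM, so the small SD understates the error of each value. The log2 fold change was -0.58 ± 0.35 (SE), with a 95% interval of -1.38 to 0.22 and a limma adjusted p of 0.753. With totals that leave out the family the groups overlapped, at 41.1, 21.3 and 23.6 FPKM in HypEV and 31.5, 30.2 and 30.1 FPKM in NorEV, and the log2 fold change was -0.15. Grm6, the receptor of retinal ON bipolar cells, had 0.647, 7.83 and 1.75 FPKM in HypEV and 3.59, 6.37 and 4.64 FPKM in NorEV. HypEV 1 and 3 were its lowest libraries. Grm4 was at 7.93 to 9.84 FPKM in HypEV and 7.17 to 10.2 FPKM in NorEV, and Grm7, the most widespread group III receptor, at 3.11 to 8.54 FPKM in HypEV and 4.93 to 8.23 FPKM in NorEV. The group II receptors Grm2 and Grm3 were at 2.41 to 4.11 and 3.40 to 7.70 FPKM in HypEV and at 1.36 to 9.23 and 4.50 to 6.80 FPKM in NorEV.

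GABA-A receptors most often combine alpha, beta and gamma subunits. The 16 genes had a median of 2.59, 6.50 and 3.86 FPKM in HypEV and 5.74, 7.52 and 5.92 FPKM in NorEV. Gabrb2 (ENSMUSG00000007653, chromosome 11, 42419757 to 42629028, plus strand), a beta subunit, was the most abundant of them, with 9.60, 21.2 and 15.8 FPKM in HypEV and 23.9, 10.3 and 14.6 FPKM in NorEV. Its groups overlapped fully, with a log2 fold change of -0.05 ± 0.48 (SE), a 95% interval of -1.14 to 1.04 and a limma adjusted p of 0.982. The sign of this difference turned with the scaling, to 0.37 with totals that leave out the Gm23935 family.

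Gabrp (ENSMUSG00000020159, chromosome 11, 33550781 to 33578959, minus strand), a subunit known mainly from epithelia, had the smallest p of the GABA-A genes. It had 1.71, 9.49 and 4.39 FPKM in HypEV and 5.86, 14.5 and 11.2 FPKM in NorEV. Its groups overlapped, through HypEV 2, and the log2 fold change was -1.03 ± 0.63 (SE), with a 95% interval of -2.46 to 0.41 and a limma adjusted p of 0.753, and -0.70 with totals that leave out the family. Gabra6, known from cerebellar granule cells, had 1.32, 4.21 and 0 FPKM in HypEV and 5.19, 7.74 and 1.63 FPKM in NorEV. The value at 0 allows up to 0.921 FPKM, the worth of 3 reads on this gene in HypEV 3.

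Gabra2, Gabra3 and Gabra5 are the alpha subunits typical of embryonic cortex. Gabra2 had 4.87, 4.96 and 10.2 FPKM in HypEV and 11.4, 3.87 and 5.83 FPKM in NorEV, and Gabra5 had 2.80, 6.47 and 5.39 FPKM in HypEV and 7.20, 7.42 and 6.01 FPKM in NorEV. Gabra3 had 1.40, 6.42 and 2.27 FPKM in HypEV and 0.50, 5.02 and 4.39 FPKM in NorEV. Its value in NorEV 1 is 2 reads, less than the 0.750 FPKM that 3 reads are worth there. The log2 fold change of Gabra3 was 0.09 ± 0.78 (SE). Of the other GABA-A genes, Gabra4 was at 3.75 to 15.3 FPKM in HypEV and 8.09 to 21.2 FPKM in NorEV, and Gabrb1 at 3.54 to 5.29 FPKM in HypEV and 4.66 to 7.62 FPKM in NorEV. Gabrd, the delta subunit of receptors outside synapses, was at 1.12 to 6.90 FPKM in HypEV and 2.03 to 6.01 FPKM in NorEV. Gabrg1 was at 0.979 to 6.52 FPKM in HypEV and 3.07 to 8.45 FPKM in NorEV, and Gabrg3 at 1.05 to 2.90 FPKM in HypEV and 2.75 to 3.36 FPKM in NorEV. In all 5 the groups overlap.

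Many GABA-A genes lie side by side in clusters in the genome, of which 2 are described here. The cluster on chromosome 5 (70751047 to 72149037, Gabrg1, Gabra2, Gabra4 and Gabrb1) had a median of 3.64, 5.91 and 5.91 FPKM in HypEV and 8.04, 7.86 and 6.20 FPKM in NorEV. On the X chromosome (72255999 to 72842602, Gabre, Gabra3 and Gabrq) the median was 1.40, 6.42 and 2.27 FPKM in HypEV and 5.74, 5.02 and 4.39 FPKM in NorEV.

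The GABA-B receptor is an obligate pair, in which Gabbr1 binds GABA and Gabbr2 couples to the G protein. Gabbr1 (ENSMUSG00000024462, chromosome 17, 37045966 to 37075067, plus strand) had 10.7, 19.1 and 18.6 FPKM in HypEV and 20.9, 24.4 and 25.0 FPKM in NorEV. The groups do not overlap, with means of 16.1 ± 4.73 FPKM in HypEV and 23.4 ± 2.20 FPKM in NorEV (SD, n = 3 each). The log2 fold change was -0.55 ± 0.40 (SE), with a 95% interval of -1.46 to 0.36 and a limma adjusted p of 0.782, and -0.13 with totals that leave out the family. Gabbr2 was well below Gabbr1 in every library, with 5.77, 5.29 and 3.55 FPKM in HypEV and 2.39, 8.86 and 6.63 FPKM in NorEV.

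HypEV and NorEV were compared by limma on log2(FPKM + 1) across 44125 genes, which asks which vesicle RNAs differ after the treatment of the neurons. No receptor subunit gene passed the threshold of an adjusted p of 0.05, and across all tested genes 7 did (0.0159%), 6 of them lower in HypEV (0.0136%). At an unadjusted p under 0.05 limma gave 0 of the 42 subunits and 6.76% of all tested genes. limma-voom on the reads without the Gm23935 family gave 0 of the 41 subunits it could test, and 0.142% of all tested genes.

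The mean of log2(FPKM + 1) was lower in HypEV for 38 of the 42 subunits and higher for Gria4, Grin3b, Grm4 and Gabra3. For Grin3b the mean FPKM itself was lower, at 1.74 in HypEV and 1.86 in NorEV. The 90.5% lower stands beside 74.9% of all tested genes, and the median log2 fold change of the subunits was -0.45, against -0.44 over all tested genes. All subunits are protein-coding, and of the 20356 tested protein-coding genes 16383 were lower, with a median of -0.42. With totals that leave out the family 25 subunits were lower and 17 higher, and the share of 59.5% lower stands beside 57.0% of all tested genes. Their median was then -0.09, against -0.12. Among the tested protein-coding genes 11230 were lower in this scaling, with a median of -0.07. HypEV lay below NorEV with no overlap for Grin2d, Grik4, Grm8 and Gabbr1 (9.52% of the subunits), close to the 10.8% among all tested genes. It lay above with no overlap for 0 subunits, and for 1.1% of all tested genes. Without the family the counts were 1 below (Grin2d, background 6.27%) and 1 above (Gria4, background 4.03%).

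The 95% intervals of the log2 fold changes were 1.59 to 3.75 wide and none excluded 0. Differences within these intervals were not detectable at this depth and spread, and the missing calls do not show that levels were alike. In vesicle RNA, fewer vesicles that carry a transcript and less of the transcript per vesicle cannot be told apart.

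**Figure D2:**
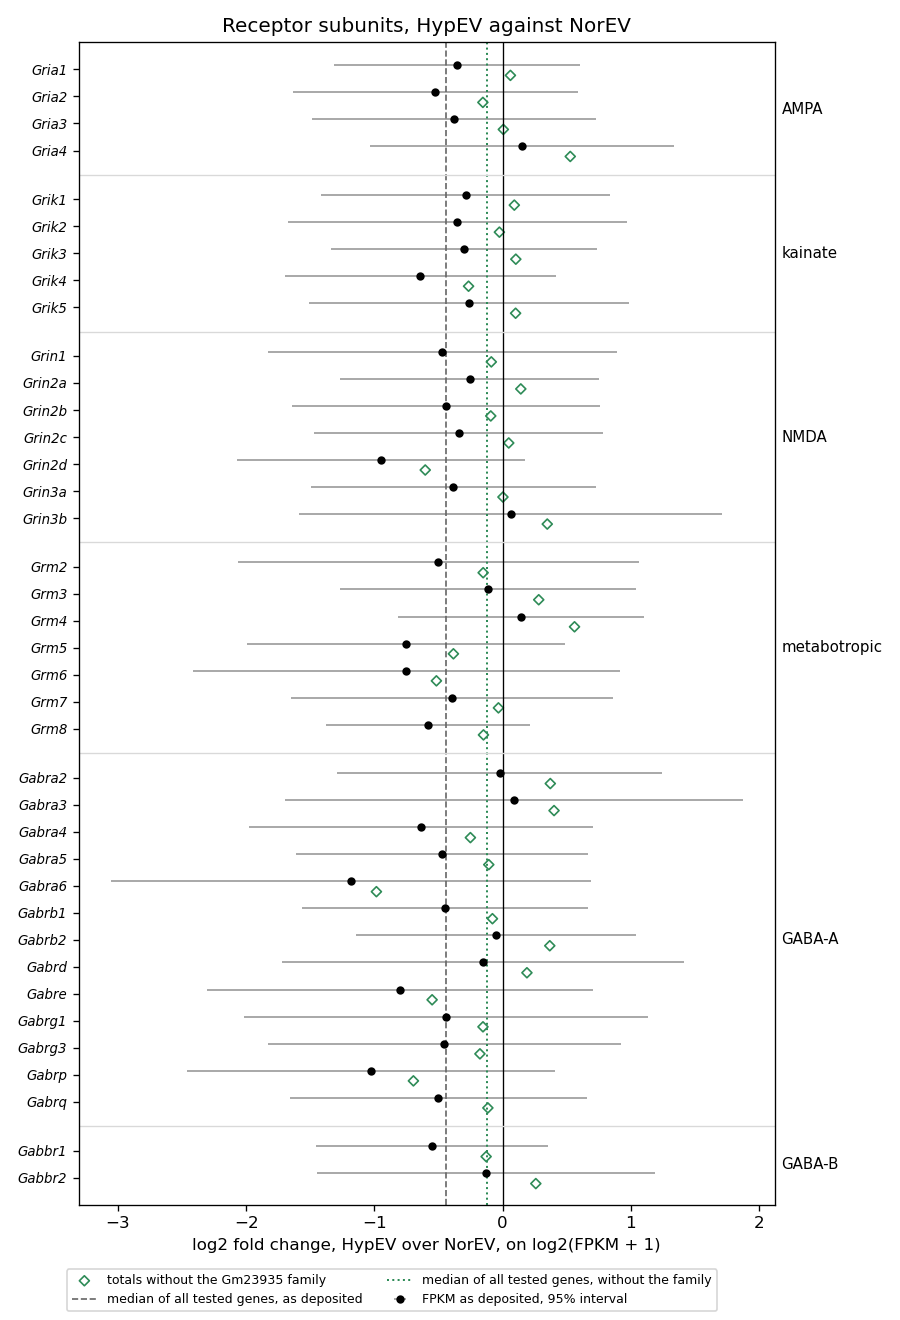
The log2 fold change of HypEV over NorEV for 38 subunit genes on log2(FPKM + 1) (black points, with 95% intervals from limma), and the same with totals that leave out the Gm23935 family (green diamonds). The dashed and dotted lines mark the medians of all tested genes, -0.44 and -0.12; all intervals span 0, and the subunits scatter round the line of all genes in both scalings.

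Lower in HypEV were 3 of 4 AMPA, 5 of 5 kainate, 6 of 7 NMDA, 7 of 8 metabotropic, 15 of 16 GABA-A and 2 of 2 GABA-B genes. With totals that leave out the family the lower counts were 1 of 4, 2 of 5, 3 of 7, 6 of 8, 12 of 16 and 1 of 2. Ionotropic glutamate receptor genes as a whole then had a median log2 fold change of 0.03, GABA-A genes of -0.13 and metabotropic receptor genes of -0.15. These differences between classes were not tested.

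All 42 subunits together took 0.106, 0.199 and 0.145% of the reads on genes in HypEV 1, 2 and 3, against 0.205, 0.209 and 0.211% in NorEV 1, 2 and 3. The group means were 0.150 ± 0.0464% in HypEV and 0.208 ± 0.00285% in NorEV (SD, n = 3 each). Counting error is small beside this: the 95% Wilson interval of the share was 0.102 to 0.111% in HypEV 1 and 0.203 to 0.218% in NorEV 3. The lower HypEV shares are those of the libraries rich in the Gm23935 family. Of the reads outside that family the subunits took 0.211, 0.203 and 0.192% in HypEV and 0.214, 0.210 and 0.211% in NorEV, with means of 0.202 ± 0.00978% in HypEV and 0.212 ± 0.00234% in NorEV (SD, n = 3 each).

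Outside the family the classes kept similar shares. AMPA subunits took 0.0255 ± 0.00114% in HypEV and 0.0247 ± 0.00121% in NorEV, and kainate subunits 0.0236 ± 0.00268% in HypEV and 0.0231 ± 0.00429% in NorEV (SD, n = 3 each). NMDA subunits took 0.0433 ± 0.00538% in HypEV and 0.0440 ± 0.00245% in NorEV. Metabotropic receptors were at 0.0403 ± 0.00746% in HypEV and 0.0469 ± 0.00644% in NorEV. GABA-A subunits took 0.0535 ± 0.00515% in HypEV and 0.0571 ± 0.00557% in NorEV, and GABA-B subunits 0.0156 ± 0.00218% in HypEV and 0.0160 ± 0.00269% in NorEV. In each class the difference between the means was smaller than the larger of its SDs.

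**Figure D3:**
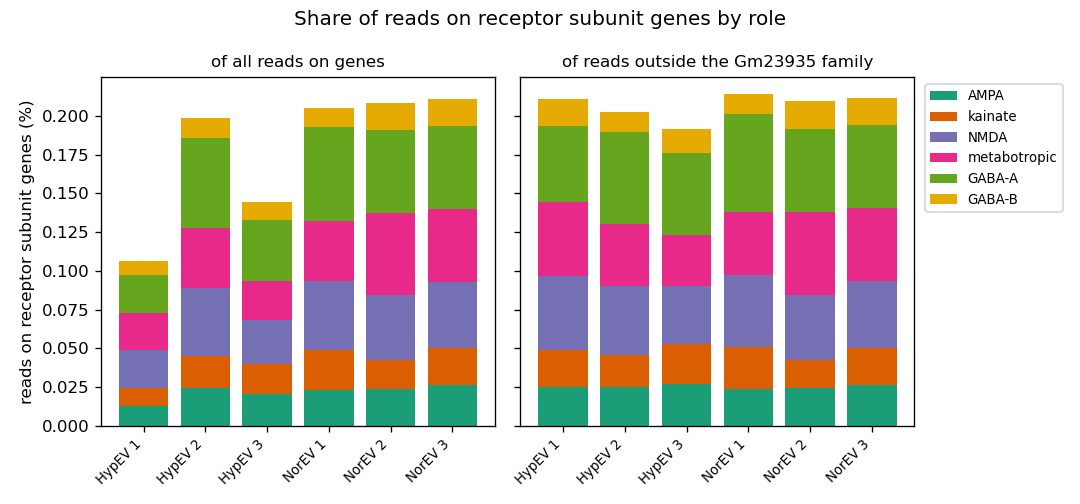
Percent of reads that fell on receptor subunit genes in each library, stacked by class, of all reads on genes (left) and of reads outside the Gm23935 family (right). On the left HypEV 1 and HypEV 3 are the shortest bars at 0.106 and 0.145%; on the right all 6 bars lie between 0.192 and 0.214%.

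Subunits known as abundant in cortical neurons were set beside those known mainly from other places, which include cerebellum, retina, motor neurons and epithelia. The cortical list of 13, among them Gria1, Gria2, Grik2, Grik5, Grin1, Grin2b, Grm5, Gabra2, Gabra5, Gabbr1 and Gabbr2, had a median of 3.15, 6.47 and 5.39 FPKM in HypEV and 7.20, 7.0 and 6.63 FPKM in NorEV. The list of 7 from other places (Grin2c, Grin3b, Grm6, Gabra6, Gabre, Gabrq, Gabrp) had 1.32, 7.83 and 2.54 FPKM in HypEV and 5.74, 6.37 and 4.64 FPKM in NorEV. The cortical median was the higher one in all libraries but HypEV 2. In NorEV the means were 6.94 ± 0.286 FPKM for the cortical list and 5.58 ± 0.879 FPKM for the other (SD, n = 3 each). In HypEV they were 5.0 ± 1.69 FPKM for the cortical list and 3.90 ± 3.46 FPKM for the other. Leaving the Gm23935 family out of the totals gave the cortical list 6.66 ± 0.441 FPKM in HypEV and 7.07 ± 0.435 FPKM in NorEV, and the other list 4.66 ± 2.91 FPKM in HypEV and 5.69 ± 0.92 FPKM in NorEV.

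Single genes of the second list reached the level of the cortical ones. Grin2c, the Grin2 subunit of cerebellar granule cells, had 4.86, 8.90 and 5.57 FPKM in HypEV and 12.7, 6.22 and 6.83 FPKM in NorEV, above Grin2b in each library. In plain reads the order was the reverse in each library, with 51, 63 and 36 reads on Grin2c and 134, 187 and 88 on Grin2b in HypEV, and 68, 43 and 50 on Grin2c and 122, 185 and 178 on Grin2b in NorEV. Gabrq, a subunit of hypothalamus and brainstem, had 5.67, 8.26 and 3.37 FPKM in HypEV and 5.74, 8.59 and 10.8 FPKM in NorEV. Gabre, its neighbour on the X chromosome, was lower, with 1.08, 2.73 and 0.879 FPKM in HypEV and 5.74, 2.30 and 2.49 FPKM in NorEV. Genes of liver and muscle, where receptor subunits play no main part, had medians of 5.04, 11.7 and 5.25 FPKM in HypEV and 8.01, 15.2 and 9.34 FPKM in NorEV, above the cortical subunits in all libraries but HypEV 3. Pan-neuronal markers had medians of 5.89, 9.25 and 10.2 FPKM in HypEV and 8.72, 7.57 and 10.9 FPKM in NorEV. What the reads on genes of other tissues come from was not tested.

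**Figure D4:**
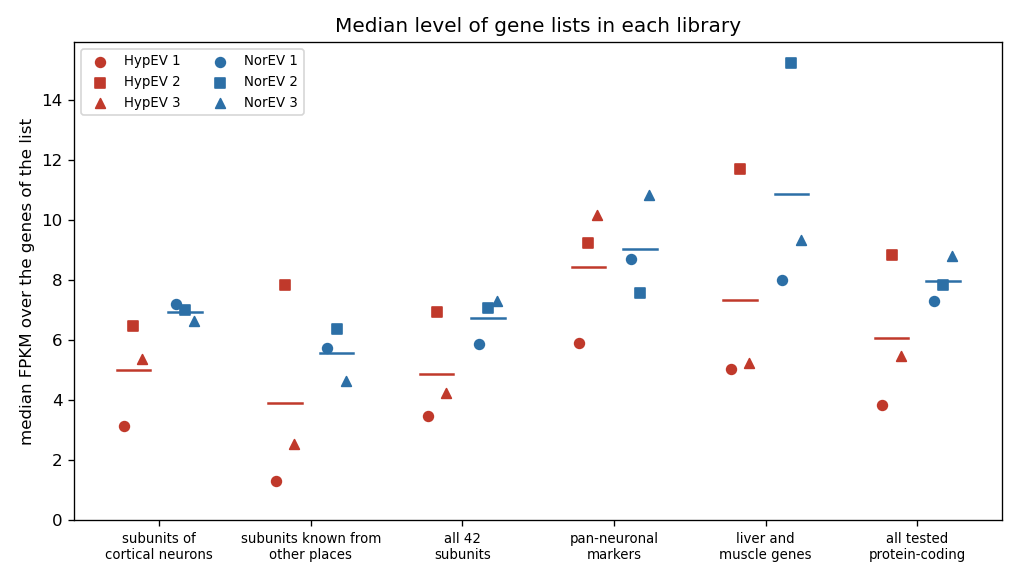
Median FPKM of 6 gene lists in each library (red HypEV, blue NorEV; lines are group means over 3 libraries). Subunits of cortical neurons lie between 3.15 and 7.20 FPKM, those known from other places between 1.32 and 7.83 FPKM, and liver and muscle genes between 5.04 and 15.2 FPKM.

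Markers of other cells that a cortical culture can hold were read too. Astrocyte markers had a median of 7.57 ± 3.35 FPKM in HypEV and 8.83 ± 0.165 FPKM in NorEV, and microglia markers 5.75 ± 2.24 FPKM in HypEV and 6.32 ± 2.46 FPKM in NorEV (SD, n = 3 each), with C1qb and Tmem119 at 0 in at least 1 library. Oligodendrocyte lineage markers had 3.77 ± 2.08 FPKM in HypEV and 4.06 ± 0.987 FPKM in NorEV, with Olig1, Olig2 and Sox10 at 0 in at least 1 library. Endothelial and mural markers had 9.67 ± 5.02 FPKM in HypEV and 15.4 ± 4.57 FPKM in NorEV, with Cldn5 at 0 in at least 1 library. With totals that leave out the Gm23935 family the medians were 9.89 ± 1.31 FPKM in HypEV and 8.98 ± 0.0406 FPKM in NorEV for astrocytes, and 7.70 ± 1.32 FPKM in HypEV and 6.47 ± 2.67 FPKM in NorEV for microglia. They were 4.94 ± 1.49 FPKM in HypEV and 4.11 ± 0.922 FPKM in NorEV for the oligodendrocyte lineage, and 12.6 ± 2.88 FPKM in HypEV and 15.6 ± 4.35 FPKM in NorEV for endothelial and mural cells. The means of all 4 lists were thus lower in HypEV as deposited, and without the family only that of endothelial and mural markers. The part of other cells in the subunit values was not tested.

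Reads per subunit gene followed transcript length. Across the 42 genes the logarithm of the mean reads and of the longest transcript had a Pearson r of 0.67 and a Spearman rho of 0.64, a description over genes that share the same 6 libraries. Over 20356 protein-coding genes the same values were 0.68 and 0.66. Between FPKM, which divides by length, and length r was 0.02 and rho 0.08. Grin2b, Grin2a and Gabrb1 have the longest transcripts and were among the genes with the most reads, while Grm8 and Gabbr1 had as many on transcripts of usual length.

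**Figure D5:**
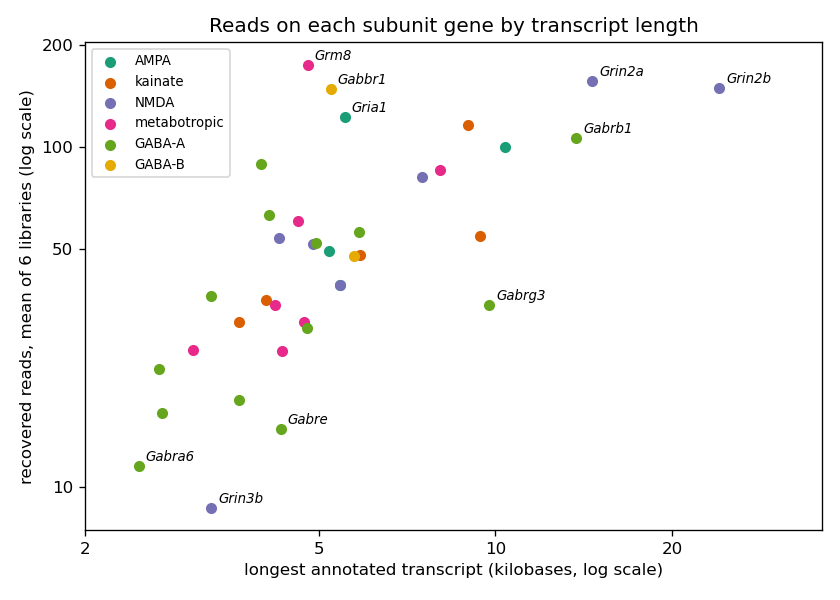
Mean recovered reads over the 6 libraries against the length of the longest annotated transcript for 38 subunit genes (both axes logarithmic), coloured by receptor class. Reads increase with length (r of 0.67 over all 42 genes); Grm8, Gabbr1 and Gria1 lie above the trend, and Grin3b, Gabre and Gabrg3 below it.

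The order of the subunits was only partly shared between libraries. Log2 levels of the 42 genes correlated between libraries with r of 0.48 (HypEV 3 with NorEV 2) to 0.82 (HypEV 2 with NorEV 2). In FPKM as deposited, the median coefficient of variation of a subunit over the 6 libraries was 0.380. For 10 genes the highest library was over 5-fold above the lowest, not counting Gabra6 with its value of 0. This spread includes the scaling by the Gm23935 family, which moves all genes of a library together. Whether neighbours in the order of mean levels, from Grm8, Gabbr1, Gabrb2 and Gria1 downward, differ from each other was not tested.

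The remaining genes of transmitter handling were read from lists of their own. None of the genes that make or move glutamate (10), make or move GABA (8), assist or anchor glutamate receptors (23), assist or anchor GABA receptors (11) or form related glycine, GABA-rho and delta receptors (10) passed the limma threshold. Lower in HypEV were 9 of 10, 6 of 8, 20 of 23, 9 of 11 and 10 of 10 of them. Beside this stand 74.9% of all tested genes and 16383 of the 20356 tested protein-coding genes. Without the Gm23935 family in the totals the lower counts were 6 of 10, 5 of 8, 12 of 23, 5 of 11 and 9 of 10. The background was then 57.0% of all tested genes and 11230 of the 20356 protein-coding ones. Grip1, a scaffold that binds AMPA receptors, had 3.68, 13.3 and 4.72 FPKM in HypEV and 26.7, 15.6 and 16.1 FPKM in NorEV, with a log2 fold change of -1.45 ± 0.54 (SE) and a limma adjusted p of 0.720. Its HypEV values are all below its NorEV values, and without the family the log2 fold change was -1.08. Kctd16, an auxiliary subunit of GABA-B receptors, had 0.346, 1.03 and 0.561 FPKM in HypEV and 3.39, 2.10 and 4.96 FPKM in NorEV, with a log2 fold change of -1.42 ± 0.66 (SE) and a limma adjusted p of 0.720. Without the family its log2 fold change was -1.27.

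Glra1, a glycine receptor subunit of spinal cord and brainstem, had 2.34, 5.50 and 3.80 FPKM in HypEV and 4.98, 20.1 and 14.3 FPKM in NorEV, with a log2 fold change of -1.40 ± 0.60 (SE), or -1.05 without the family. Its groups overlap, through HypEV 2 and NorEV 1. Abat, the enzyme that breaks down GABA, had 9.57, 21.5 and 14.9 FPKM in HypEV and 22.7, 23.5 and 22.7 FPKM in NorEV, with no overlap and a log2 fold change of -0.62 ± 0.41 (SE), which was -0.20 without the family. Slc1a3, a glutamate transporter of astrocytes and radial glia, averaged 11.7 ± 6.34 FPKM in HypEV and 24.1 ± 12.8 FPKM in NorEV (SD, n = 3 each), with a log2 fold change of -0.97 ± 0.58 (SE), which was -0.57 without the family. None of these 3 passed either, with limma adjusted p of 0.720 for Glra1, 0.770 for Abat and 0.753 for Slc1a3.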

How the data were processed

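The authors deposited 1 table per library with FPKM values for 53379 Ensembl genes, and the tables' names mention HTSeq. Per the labels' protocols, Trizol was used for RNA and the Epi mini longRNA-seq kit (Epibiotek) for libraries. Aligner, genome build, annotation, read length and strand setting are not given in the sources used here. Each value is relative to all fragments on genes, so genes that take many fragments lower all others.

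Whole reads were recovered from the FPKM steps with the longest GENCODE M21 transcript of each gene (GRCm38; 53274 identifiers matched, 105 did not). Of values above 0, 96.0% were whole within 0.01 reads, and 1 read on 1 kb was worth 0.467 to 0.915 FPKM. A count of 0 allows 3 reads, or 0.000140 to 0.000275% of a library. The Wilson and Poisson intervals and these limits cover counting error only. The intervals of the fold changes come from limma and rest on the variation among libraries. In these data 653 of 656 genes covered on their own strand by another gene had no reads in any library, and so had 67 of 447 genes that a gene of the opposite strand covers.

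The 44125 genes that averaged 1 FPKM or more were tested on log2(FPKM + 1), which understates changes of low genes, with limma 3.58.1 in R 4.3.3 (two-sided, no covariates, eBayes with an intensity trend). A Benjamini-Hochberg adjusted p under 0.05 over all tested genes was the threshold. limma-voom on the recovered reads was an alternative; the reads of Grm4 were not whole, so 41 subunits entered it. Shared stretches came from the GENCODE transcripts, near-identical copies from blastn 2.17.0 and overlaps from bedtools 2.31.1. Python 3.11.15 did the rest (matplotlib 3.10.9, scipy 1.17.1, pandas 2.3.3, numpy 2.4.6).

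Full statistics are given for the subunit of smallest p in each receptor class, the subunits whose groups did not overlap and the 3 of highest mean. In pathway lists it is the gene of smallest p. Some subunits and sequences are left out of the text and figures. The members, the lists, the tests and the alternatives were chosen with earlier results of these data known.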

Additional observations from a re-analysis of the deposited data

How the results depend on the processing

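Under all 21 alternatives 0 subunits passed. Of 168 fits of the 8 subunits chosen for full statistics, 158 kept their direction with none passing. The other 10 turned the sign of Gabrb2, whose log2 fold change was -0.05. It was 0.37 with totals without the Gm23935 family, 0.40 with centring on the median, 0.39 with quantile normalization and 0.11 with array weights. Leaving out 1 replicate gave -0.32 to 0.25, with 0.24 without HypEV 1 and 0.25 without NorEV 1, and it was 0.44 with limma-voom without the family. The cause was not tested beyond these scalings.

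The count over all genes, 7, was 0 with a pseudocount of 0.1 or 5, no filter, centring, no trend or the replicate block. It was 75 with array weights, 231 with limma-voom on all fragments and 60 with limma-voom without the family. Leaving out 1 replicate gave 0 to 71, with 71 without HypEV 2 and 2 without HypEV 1 or without NorEV 1. Alternatives added after seeing the data gave 0 genes without HypEV 1 and 3 (Gabrb2 0.44), 0 without these and NorEV 1 (Gabrb2 0.74), where the lone HypEV 2 is assumed to vary like NorEV, and 0 with the replicate block and totals without the family (Gabrb2 0.37).

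Same-numbered libraries deviated together with correlations of 0.04, 0.10 and -0.06, so the numbers were not taken as pairs. With the replicate block 0 genes passed.

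The median log2 fold change of the subunits minus that of all tested genes stayed between -0.12 (without HypEV 1 and 3) and 0.06 (without HypEV 2). With a median of 47 reads per subunit and library and 3 libraries per group, the median SE was 0.54 on the log2 scale, which limits what could be seen. Groups of 3 are too small for a test of outlying libraries.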
